A study of Mus musculus with 8 samples.

Results

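The 10 genes described here are Robo4, Slc18a1, Icos, Nkd2, Muc13, Arpp21, Slc28a2, Pnp2, Cplx2 and AA467197. They were chosen by their measured CPM, which in each of 4 H2afy_KO samples lay below that in each of 4 H2afy_WT samples, and because they stand outside the classical transcription factor, recombinase and pre-B receptor program of B-cell development. All 10 were among the 37991 gene IDs of the deposited count table and among the 13722 genes that passed the filter on low counts. RNA had been taken from B-cell-biased lymphoid progenitors that had been purified by flow cytometry from Kit-enriched mouse bone marrow. The H2afy-/- samples (H2afy_KO) are called knockout pools 1 to 4 here, and the H2afy+/+ samples (H2afy_WT) wild-type pools 1 to 4. Mice of both genotypes were 5 to 12 weeks old, and each sample was a pool of 5000 to 15000 cells of 2 to 3 mice. The labels give no sex, no strain background and no deleted part of the allele.

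H2afy encodes macroH2A1, a variant of histone H2A with a large extra domain, the macro domain, that replaces ordinary H2A in part of the nucleosomes and is best known from silenced chromatin such as the inactive X chromosome. B-cell-biased lymphoid progenitors are marrow cells that have begun to express lymphoid genes and are on the way to the pro-B stage. Most of the listed genes are better known from other tissues: blood vessels, nerve terminals, gut epithelium or T cells.

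Levels are CPM, counts relative to library sizes scaled by the TMM method, and fold changes are knockout over wild-type. The samples held 21330088 to 29029765 counts. The sorted population carried its defining transcripts in both genotypes: Dntt lay at 3300 to 5070 CPM in knockout pools and 5010 to 6230 CPM in wild-type pools, Il7r at 321 to 363 CPM in knockout pools and 384 to 450 CPM in wild-type pools, and Ly6d at 651 to 1230 CPM in knockout pools and 608 to 977 CPM in wild-type pools. H2afy itself had 1950, 1740, 1420 and 1520 CPM in knockout pools 1 to 4, against 2450, 2570, 2060 and 1980 CPM in wild-type pools 1 to 4, without overlap (log2 fold change -0.45, SE 0.15; edgeR adjusted p = 0.504). The labels do not say which part of H2afy was deleted, so reads outside that part cannot check the genotype. The share of immunoglobulin genes among the counts was 0.402%, 10.0%, 39.0% and 33.4% in knockout pools 1 to 4, against 3.47%, 0.948%, 19.5% and 12.9% in wild-type pools 1 to 4.

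Among 24 early B-lineage markers, 20 log2 fold changes were negative and 4 positive (median -0.88). Without overlap 13 were lower (against 2.35% of all tested genes), 18 were lower at an unadjusted edgeR p under 0.05 (against 3.69%), and 0 passed the adjusted test. Ebf1, a factor that specifies B cells, had 65.0 to 218 CPM in knockout pools and 252 to 640 CPM in wild-type pools, and Igll1, a part of the surrogate light chain, 68.1 to 330 CPM in knockout pools and 381 to 1250 CPM in wild-type pools. The sum of the 24, of which Dntt alone is a large part, was 6680 to 8370 CPM in knockout pools and 9320 to 12300 CPM in wild-type pools. The part of these markers in the levels of the 10 genes was not tested. Markers of mature B and plasma cells, 3460 to 437000 CPM in knockout pools and 7250 to 155000 CPM in wild-type pools, overlapped in a sum carried by Ighm and Igkc. Of the 12 tested, 11 log2 fold changes were positive and 1 negative (median 1.3), all with overlap. The sums for mast cells and basophils, natural killer and innate lymphoid cells, granulocytes and monocytes, dendritic cells, erythroid cells and megakaryocytes, and neurons also overlapped between genotypes. Single members of the dendritic, granulocyte and monocyte, and natural killer and innate lymphoid lists did not overlap. No tested member of the mast and basophil, erythroid and megakaryocyte, or neuron lists was free of overlap. All 12 tested dendritic markers had a positive log2 fold change (median 0.51), 3 of them at an unadjusted edgeR p under 0.05 (against 3.88% of all tested genes). Cox6a2 was higher without overlap (against 2.18%), at 181 to 230 CPM in knockout pools and 112 to 148 CPM in wild-type pools. Of 15 granulocyte and monocyte markers 10 were negative and 5 positive. Without overlap Irf8 and Cd68 were higher (against 2.18%) and Csf3r was lower (against 2.35%). Of 11 tested natural killer and innate lymphoid markers 5 were negative and 6 positive, with Klrd1 and Tox higher without overlap (against 2.18%). Of 12 tested erythroid and megakaryocyte markers 9 were negative (median -1.22), all with overlap. None of these markers passed the adjusted edgeR test (0 of 13722 genes did), and their part in the levels of the 10 genes was not tested.

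In all 10 genes every knockout pool lay below every wild-type pool, which the choice of the genes fixes. The same order held for 322 of the 13722 tested genes (2.35%), and 157 of these 322 had a log2 fold change at least as low as that of Slc28a2, the least lowered of the 10. The log2 fold changes of the 10 ran from -4.46 to -0.72 with a median of -1.46, against a median of 0 over all tested genes, of which 49.9% lay below 0. The edgeR test with the replicate numbers as a block called 0.0802% of genes lower and 0.0292% higher, and DESeq2 called 0.517% lower and 0.343% higher. The narrowest gap belonged to Slc28a2, whose lowest wild-type pool was 1.47 times its highest knockout pool. Just outside the rule lay Gm17552, at 0.730 to 2.49 CPM in knockout pools and 2.48 to 4.30 CPM in wild-type pools. No test of genotype is given for the 10 genes, because these values chose them. In pools of sorted cells, fewer cells that express a gene and less RNA of it per cell cannot be told apart.

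**Figure D1:**
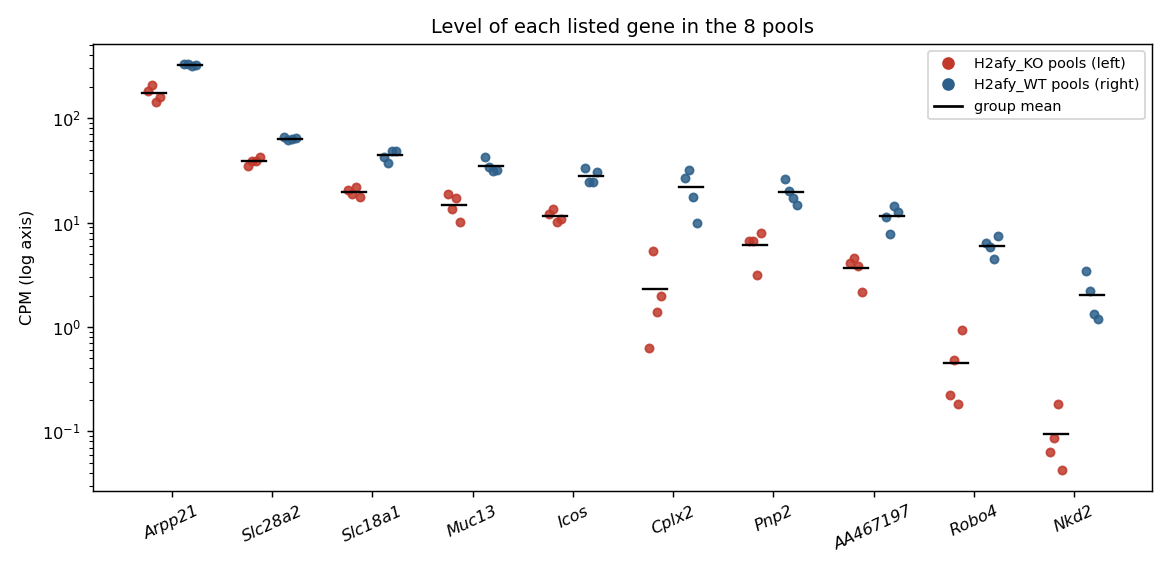
CPM of each listed gene in the 4 knockout (left) and 4 wild-type (right) pools on a log axis; points are samples and black lines group means. Arpp21 is the highest of the 10, near 325 CPM in wild-type pools, and Nkd2 the lowest, at or under 0.182 CPM in all knockout pools.

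Among the surface receptors, Robo4 was the most lowered. It encodes a roundabout-family receptor that stabilises blood vessels and is also expressed by haematopoietic stem cells. Robo4 had 0.222, 0.478, 0.182 and 0.928 CPM in knockout pools 1 to 4, against 6.35, 5.78, 4.44 and 7.40 CPM in wild-type pools 1 to 4. The knockout pools together held 43 Robo4 reads and the wild-type pools 644. From these summed reads the knockout level was 7.52% of the wild-type level, a description that leaves out the spread between pools. The log2 fold change was -3.70 (SE 0.49), and -4.31 without knockout pool 4. Robo3, a family member 1.6 kb beyond Robo4 on chromosome 9, had 1.42 ± 0.789 CPM in knockout pools and 2.12 ± 0.624 CPM in wild-type pools (SD, n = 4 each), with overlapping groups and an edgeR adjusted p of 0.810. Of 14 Slit and Robo guidance genes 7 were tested and 0 passed. Srgap3 and Srgap1, which encode GTPase-activating partners of Robo receptors, had the smallest p, with log2 fold changes of 0.50 (SE 0.24) and -0.48 (SE 0.37), and Robo1 had 58 reads over all 8 samples.

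The summed level of 13 endothelial markers was 333 to 389 CPM in knockout pools and 307 to 415 CPM in wild-type pools. Most of that sum came from Pecam1 and Egfl7, which blood cells also express; Cdh5, the endothelial cadherin, lay at 0.571 to 3.75 CPM in knockout pools and 0.189 to 3.16 CPM in wild-type pools. The 15 stem and multipotent markers summed to 651 to 1130 CPM in knockout pools and 494 to 796 CPM in wild-type pools, a sum carried by Cd34 and Ly6a. Both pairs of ranges overlapped. Of the 9 endothelial markers tested, 5 log2 fold changes were negative and 4 positive (median -0.28), all with overlap. At an unadjusted edgeR p under 0.05, 2 were lower (against 3.69% of all tested genes) and 0 higher. Of the 13 stem markers tested, 9 had a negative and 4 a positive log2 fold change (median -0.45). Without overlap 2 were lower (against 2.35% of all tested genes), Tal1 at -0.51 (SE 0.26) and Angpt1 at -0.71 (SE 0.18). At an unadjusted edgeR p under 0.05, 3 stem markers were lower (against 3.69%) and 0 higher. None of the endothelial or stem markers passed the adjusted edgeR test, and the part of these markers in the Robo4 level was not tested.

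Icos encodes a costimulatory receptor of the CD28 family, best known from activated and follicular helper T cells. It had 12.1, 13.4, 10.1 and 10.8 CPM in knockout pools 1 to 4, against 33.0, 24.5, 24.6 and 30.3 CPM in wild-type pools 1 to 4, a log2 fold change of -1.27 (SE 0.17). Its samples lay close together within each genotype. Cd3e, which encodes a subunit of the T-cell receptor complex, reached 0.169 CPM in knockout pools and 0.377 CPM in wild-type pools at most. The 17 T-lineage markers, led by Lck, summed to 300 to 463 CPM in knockout pools and 400 to 472 CPM in wild-type pools. Of the 13 tested, 5 log2 fold changes were negative and 8 positive (median 0.21), and 0 passed the adjusted edgeR test. Without overlap, 2 were higher, Cd5 and Zap70 (against 2.18% of all tested genes), and 1 was lower, Lat (against 2.35%). The part of these markers in the Icos level was not tested.

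Beside Icos on chromosome 1 lie Ctla4 and Cd28, of the same receptor family. Ctla4, an inhibitory receptor whose start lies 90.9 kb before that of Icos, had 5.17, 2.09, 6.31 and 6.12 CPM in knockout pools 1 to 4 and 6.62, 8.34, 6.49 and 11.2 CPM in wild-type pools 1 to 4 (log2 fold change -0.73, SE 0.34; edgeR adjusted p = 0.674). Cd28, 261.1 kb before Icos, had 87.5, 110, 125 and 98.0 CPM in knockout pools 1 to 4 and 28.2, 17.4, 80.1 and 57.0 CPM in wild-type pools 1 to 4 (log2 fold change 1.20, SE 0.45; edgeR adjusted p = 0.603). In neither gene did the genotypes overlap, and neither passed the test. Within wild-type pools, Cd28 was highest in samples 3 and 4, the samples of that genotype with the largest immunoglobulin shares; the part of those shares in the Cd28 values was not tested. Icosl, which encodes the ligand of Icos, had 31.1 ± 5.28 CPM in knockout pools and 22.0 ± 3.86 CPM in wild-type pools (SD, n = 4 each; log2 fold change 0.50, SE 0.18; edgeR adjusted p = 0.529), also without overlap. In the list of CD28 family receptors and their B7 ligands 10 of 12 were tested and 0 passed, with 3 negative and 7 positive log2 fold changes.

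**Figure D2:**
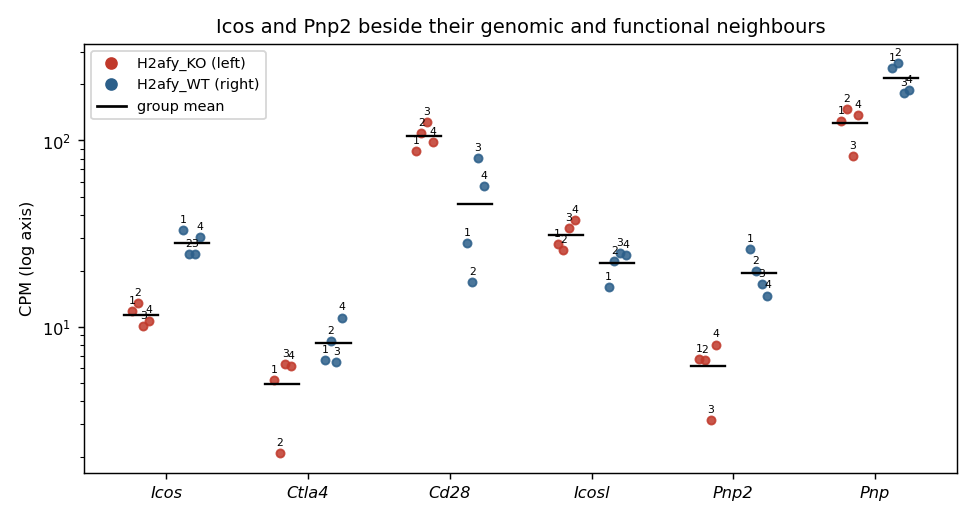
CPM (log axis) of Icos, Ctla4, Cd28, Icosl, Pnp2 and Pnp in knockout (left) and wild-type (right) pools; small digits are replicate numbers and black lines group means. Icos, Ctla4, Pnp2 and Pnp are lower and Cd28 and Icosl higher in every knockout pool than in every wild-type pool.

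Muc13 encodes a transmembrane mucin of gut epithelium that is also found on haematopoietic progenitors. It had 18.9, 13.4, 17.0 and 10.2 CPM in knockout pools 1 to 4, against 42.8, 33.9, 31.3 and 31.7 CPM in wild-type pools 1 to 4, a log2 fold change of -1.23 (SE 0.21). The knockout mean was 42.6% of the wild-type mean. Muc1, another transmembrane mucin, was barely counted, at 0.351 ± 0.118 CPM in knockout pools and 0.392 ± 0.372 CPM in wild-type pools (SD, n = 4 each; edgeR adjusted p = 0.980). Of 16 other mucin and sialomucin genes, Muc1 among them, 6 were tested and 0 passed; the blood-cell sialomucin Selplg had 117 ± 32.1 CPM in knockout pools and 71.4 ± 15.4 CPM in wild-type pools (SD, n = 4 each), a log2 fold change of 0.72 (SE 0.23; edgeR adjusted p = 0.493), and Cd164 one of 0.29 (SE 0.15; edgeR adjusted p = 0.700). The 8 epithelial markers summed to 3.97, 6.48, 54.8 and 25.6 CPM in knockout pools 1 to 4 and to 3.92, 3.74, 10.8 and 13.2 CPM in wild-type pools 1 to 4, led by Epcam and Cldn7, with Krt8 and Elf3 at 0 in all knockout pools. Their part in the Muc13 level was not tested. A gene on the other strand, Gm15657, overlaps the start of Muc13 and had 0.547 ± 0.486 CPM in knockout pools and 1.67 ± 0.484 CPM in wild-type pools (SD, n = 4 each), a log2 fold change of -1.57 that was -2.44 without knockout pool 1. Its reads cannot be told apart from those of Muc13 where their exons meet, since the kit does not mark strand.

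Slc28a2 and Pnp2 both act on purine nucleosides. Slc28a2 encodes a sodium-coupled transporter that brings adenosine, inosine and guanosine into the cell, and purine nucleoside phosphorylase, the enzyme of Pnp and Pnp2, splits inosine and guanosine into base and sugar phosphate; its loss in humans depletes T cells. Slc28a2 had 35.1, 39.1, 38.6 and 42.4 CPM in knockout pools 1 to 4, against 66.3, 62.1, 62.7 and 63.9 CPM in wild-type pools 1 to 4. Its log2 fold change of -0.72 (SE 0.12) was the smallest of the 10, and its samples were the tightest: the SD within genotypes was 0.08 on the log2 CPM scale, against a median of 0.32 over all tested genes.

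Pnp2 had 6.70, 6.65, 3.15 and 8.02 CPM in knockout pools 1 to 4, against 26.1, 19.9, 17.0 and 14.7 CPM in wild-type pools 1 to 4, a log2 fold change of -1.66 (SE 0.29). Knockout pool 3, the sample richest in immunoglobulin counts, was the lowest, but knockout pool 4, the next richest, was the highest of the knockout pools. The part of the immunoglobulin shares in the Pnp2 level was not tested. Pnp, which ends 2.6 kb before Pnp2 on chromosome 14, had 127, 148, 82.1 and 137 CPM in knockout pools 1 to 4 and 245, 259, 179 and 187 CPM in wild-type pools 1 to 4. The Pnp groups did not overlap (log2 fold change -0.81, SE 0.20), but the edgeR adjusted p was 0.419 (0.0172 with DESeq2). Per length Pnp stood far above Pnp2, at 42.0 and 4.47 RPKM (CPM per kilobase of annotated exon) in knockout pools and 73.9 and 14.2 RPKM in wild-type pools.

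Pnp2 and Slc28a2 each have a near copy beside them, so the sequences decide how far a read of 50 bases can be placed. The coding sequence of Pnp2 was 98.2% identical to that of Pnp over 868 aligned bases (GENCODE M1 transcripts), and 33.1% of the distinct stretches of 50 bases in Pnp2 transcripts also occurred in Pnp. Slc28a2 and Gm14085, called Slc28a2b in RefSeq, were 94.8% identical over 1982 bases, and 38.5% of the Slc28a2 stretches occurred in Gm14085. The opening of each pair, 60 aligned coding bases (bases 46 to 105 of Pnp2 and 1 to 60 of the other 3), shows how sparse the differences are; capitals mark the bases that differ within a pair.
Pnp2: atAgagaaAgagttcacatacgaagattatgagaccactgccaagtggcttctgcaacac
Pnp: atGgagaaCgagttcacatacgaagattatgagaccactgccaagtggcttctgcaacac
Slc28a2: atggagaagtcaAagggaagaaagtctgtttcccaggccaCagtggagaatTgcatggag
Gm14085: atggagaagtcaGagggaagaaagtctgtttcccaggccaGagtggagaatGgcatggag
How the authors' counter treated reads that match both copies was not given in the sources used here. Values of Pnp2 and Slc28a2 are uncertain by such reads. Gm14085 itself had 0.396 ± 0.306 CPM in knockout pools and 1.07 ± 0.783 CPM in wild-type pools (SD, n = 4 each), far below Slc28a2. Of the other 8 genes, Cplx2 shared 1.32% of its stretches with transcripts of other genes and the remaining 7 shared 0. Only the protein-coding transcripts of GENCODE M1 were compared, so stretches shared with other transcripts are not covered.

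Of 27 other genes of nucleoside transport and salvage 20 were tested, and 0 passed the edgeR test in either direction; 14 log2 fold changes were negative and 6 positive (median -0.19). Pnp and Xdh, which encodes xanthine dehydrogenase, had the smallest p. Xdh was at 4.03 ± 1.61 CPM in knockout pools and 10.9 ± 7.33 CPM in wild-type pools (SD, n = 4 each; edgeR adjusted p = 0.570), with overlapping groups. The other concentrative transporters, Slc28a1 and Slc28a3, were too low to test, with 38 and 44 reads over all 8 samples.

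Slc18a1 encodes a vesicular monoamine transporter, which loads amines such as serotonin into secretory vesicles of neuroendocrine cells. It had 20.5, 18.8, 21.8 and 17.5 CPM in knockout pools 1 to 4, against 42.3, 37.3, 48.1 and 48.9 CPM in wild-type pools 1 to 4, a log2 fold change of -1.17 (SE 0.15), and the knockout mean was 44.5% of the wild-type mean. Its sister gene Slc18a2 was the more abundant of the pair per length, with 18.4 RPKM in knockout pools and 18.7 RPKM in wild-type pools. Slc18a1 had 3.64 RPKM in knockout pools and 8.18 RPKM in wild-type pools. The log2 fold change of Slc18a2 was -0.02 (SE 0.23; edgeR adjusted p = 0.991), and its sign changed with the samples left out. The neuroendocrine granule genes Chga and Chgb reached at most 0.190 and 0.295 CPM in knockout pools and 0.878 and 0.135 CPM in wild-type pools. Among the 5 tested genes of monoamine handling 0 passed, and Maoa and Ddc, which had the smallest p, were at 0.32 (SE 0.26) and -0.36 (SE 0.35). Atp6v1b2, on the other strand, overlaps the start of Slc18a1 and had 53.0 ± 4.79 CPM in knockout pools and 47.7 ± 8.05 CPM in wild-type pools (SD, n = 4 each). Reads of Slc18a1 and Atp6v1b2 cannot be told apart where their exons meet.

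Nkd2 and Cplx2, the most lowered genes beside Robo4, both lie on chromosome 13, as H2afy does. Nkd2 encodes a Dishevelled-binding inhibitor of Wnt signalling. It had 0.0635, 0.0870, 0.182 and 0.0422 CPM in knockout pools 1 to 4, which are 2, 2, 3 and 1 reads, against 3.41, 2.19, 1.34 and 1.20 CPM in wild-type pools 1 to 4. The 8 reads of knockout pools and 223 of wild-type pools put the knockout level at 4.04% of the wild-type level. This too describes summed reads and leaves out the spread between pools. The fitted log2 fold change of -4.46 (SE 0.61) depends on the small count added in the fit. Even in wild-type pools, Nkd2 averaged 0.430 RPKM, above only 11.51% of the tested genes.

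Cplx2 encodes complexin 2, which binds assembled SNARE complexes and times vesicle fusion. It had 0.635, 5.31, 1.40 and 1.98 CPM in knockout pools 1 to 4, against 27.0, 32.2, 17.5 and 10.0 CPM in wild-type pools 1 to 4, a log2 fold change of -3.22 (SE 0.67), and of -4.03 without knockout pool 2. Cplx2 was the most variable of the 10, with an SD within genotypes of 1.01 on the log2 CPM scale. Within wild-type pools, both Nkd2 and Cplx2 were lower in samples 3 and 4 than in samples 1 and 2, as was Pnp2. Samples 3 and 4 are those with the larger immunoglobulin shares, in knockout pools as well. Within knockout pools the order differed: Nkd2 was highest in pool 3, Cplx2 lowest in pool 1 and Pnp2 highest in pool 4. The part of those shares in these levels was not tested.

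The relatives of both genes were nearly absent: Nkd1 had 55 reads and Cplx1 1 read over all 8 samples. Of 33 genes of the canonical Wnt pathway 21 were tested and 0 passed, with 12 negative and 9 positive log2 fold changes. The lowest p-values belonged to the DNA-binding factors of the pathway. Tcf7l1 was at 0.766 ± 0.467 CPM in knockout pools and 3.17 ± 1.49 CPM in wild-type pools (SD, n = 4 each; log2 fold change -2.03, SE 0.54; edgeR adjusted p = 0.426, DESeq2 adjusted p = 0.0374). Lef1, which also marks early B cells, had 6.29, 26.7, 4.55 and 12.1 CPM in knockout pools 1 to 4 and 59.6, 50.2, 49.6 and 32.2 CPM in wild-type pools 1 to 4 (log2 fold change -1.95, SE 0.55; edgeR adjusted p = 0.473). Without knockout pool 2 the log2 fold change of Lef1 was -2.64 (edgeR adjusted p = 0.106). Lef1 and Cplx2 shared their highest knockout pool, number 2, and their lowest wild-type pool, number 4.

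Among complexins and SNARE genes 20 of 28 were tested and 0 passed, 6 of them with a negative and 14 with a positive log2 fold change. Stx1a, a syntaxin of nerve terminals, was at -1.06 (SE 0.43; edgeR adjusted p = 0.610) and Vamp4, a SNARE of the trans-Golgi network, at 0.34 (SE 0.14; edgeR adjusted p = 0.612). Syp, the synaptic vesicle protein, stayed at or under 1.04 CPM in knockout pools and 0.679 CPM in wild-type pools.

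Arpp21 encodes a cAMP-regulated phosphoprotein with an RNA-binding R3H domain, known from striatal neurons and immature thymocytes. It was the most abundant of the 10, with 180, 206, 142 and 161 CPM in knockout pools 1 to 4, against 328, 328, 318 and 324 CPM in wild-type pools 1 to 4 (log2 fold change -0.91, SE 0.13). The knockout pools ranged more widely than the wild-type pools. Of its R3H relatives, R3hdm1 had 143 ± 18.8 CPM in knockout pools and 143 ± 3.17 CPM in wild-type pools (SD, n = 4 each), and R3hdm2 was at -0.09 (SE 0.21; edgeR adjusted p = 0.949). The sign of R3hdm1, near 0, changed between scalings. In the list of R3H, cAMP and calmodulin genes 15 of 16 were tested and 0 passed, with a median log2 fold change of 0; Ppp3ca, a calcineurin subunit, and Prkar1b, a regulatory subunit of protein kinase A, had the smallest p, at 0.20 (SE 0.12) and 1.04 (SE 0.84). Without wild-type pool 4 Prkar1b was at 2.70 (edgeR adjusted p = 0.539). The gene 2310075C17Rik lies within Arpp21 on the other strand, had 7.79 ± 2.79 CPM in knockout pools and 14 ± 2.88 CPM in wild-type pools (SD, n = 4 each), and cannot be told apart from Arpp21 where their exons meet, since the kit does not mark strand.

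AA467197, also called Nmes1, encodes a small mitochondrial protein related to the cytochrome c oxidase subunit of Ndufa4. It had 4.13, 4.61, 3.82 and 2.15 CPM in knockout pools 1 to 4, against 11.2, 7.70, 14.4 and 12.7 CPM in wild-type pools 1 to 4, a log2 fold change of -1.65 (SE 0.29). Ndufa4 had 245 ± 52.7 CPM in knockout pools and 244 ± 35.8 CPM in wild-type pools (SD, n = 4 each; log2 fold change 0.01, SE 0.17; edgeR adjusted p = 0.997), with a sign that changed under unscaled library sizes. Of 14 genes of that family and of cytochrome c oxidase 12 were tested and 0 passed. Cox8a and Cox4i1, both structural subunits of the oxidase, had the smallest p, at 0.28 (SE 0.14) and 0.21 (SE 0.14).

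**Figure D3:**
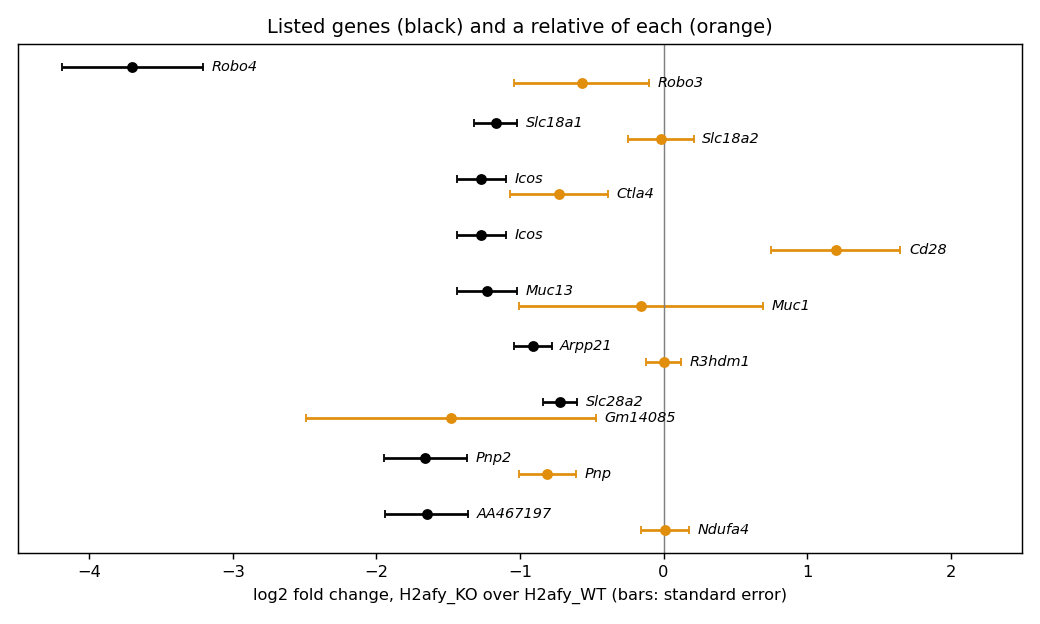
Log2 fold change, knockout over wild-type, with its standard error, for listed genes (black) and a relative of each (orange). The relatives Slc18a2, R3hdm1 and Ndufa4 lie near 0, Cd28 lies to the right of 0, and Robo4 lies farther left than Robo3.

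Transcripts of AA467197 and Arpp21 also carry microRNAs, short RNAs that direct the silencing of messenger RNAs through bases 2 to 8, the seed. Mir147 lies in an exon of AA467197 and Mir128-2 outside the annotated exons of Arpp21, within the gene. Their mature forms in RefSeq (GRCm38.p6) are shown because their sequences lie within 2 of the listed genes; capitals mark the seed.
mmu-miR-147-5p: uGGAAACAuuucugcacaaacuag
mmu-miR-128-3p: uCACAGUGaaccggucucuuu
mmu-miR-128-2-5p: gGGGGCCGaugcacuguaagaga
The 3 seeds differ. Both microRNA genes had 0 reads in the count table, and libraries of this kind do not measure mature microRNAs.

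Taking the 9 pathway lists together, 116 of their 178 genes were tested beside the 10 members and 0 passed the edgeR test (0 of all 13722 genes did in each direction, 0%). At an unadjusted p under 0.05 there were 5 higher and 8 lower pathway genes, while over all tested genes 3.88% were higher and 3.69% lower. Every knockout pool lay below every wild-type pool in 4 of the 116 (3.45%, against 2.35% of all tested genes), namely Ctla4, Lef1, Tcf7l1 and Pnp. It lay above in 3 (2.59%, against 2.18%), namely Cd28, Icosl and Vamp4. The median log2 fold change of the 116 was 0.02.

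The positions of the 10 genes were not used to choose them. On NCBIM37, Icos lies on chromosome 1 (61034771 to 61057164, plus strand), Slc18a1 on 8 (71561610 to 71613134, minus), Pnp2 on 14 (51575667 to 51584424, plus) and Muc13 on 16 (33794123 to 33820020, plus). Robo4 (37209482 to 37221608, plus) and Arpp21 (111967595 to 112138442, minus) both lie on chromosome 9. Cplx2 (chromosome 13, 54472713 to 54485278, plus strand of NCBIM37) lies 1.69 Mb from H2afy and Nkd2 (73955982 to 73985079, minus strand) 17.72 Mb from it. Of the 32 tested genes between Cplx2 and H2afy, 18 had a negative log2 fold change, the median was -0.07, and 0 passed. Groups did not overlap in 3 of them, named here after their values were seen. Ddx41 (log2 fold change -0.66, SE 0.14) and Caml (-0.57, SE 0.15) were lower (6.25%, against 2.35% of all tested genes), and Lman2 (0.30, SE 0.12) was higher (3.12%, against 2.18%).

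Slc28a2 (chromosome 2, 122251126 to 122286873, plus strand) and AA467197 (122462722 to 122466927, plus strand) start 211.6 kb apart. Of the 3 tested genes between them, Gm14085 and Bambi-ps1 averaged about 1 CPM or less. The third, Gatm, which encodes the first enzyme of creatine synthesis and lies 25.7 kb before AA467197, had 53.5 ± 9.03 CPM in knockout pools and 57.6 ± 13.2 CPM in wild-type pools (SD, n = 4 each; edgeR adjusted p = 0.929). Slc30a4, a zinc transporter gene 40.0 kb beyond AA467197, had 9.37 ± 1.60 CPM in knockout pools and 10.5 ± 2.53 CPM in wild-type pools (SD, n = 4 each; edgeR adjusted p = 0.897).

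To the right of Pnp2 the tested genes belong to the ribonuclease cluster: Rnase10 was at 2.59 ± 1.36 CPM in knockout pools and 5.93 ± 2.93 CPM in wild-type pools (SD, n = 4 each; log2 fold change -1.19, SE 0.53; edgeR adjusted p = 0.646), with overlapping groups. Rnase12 had 2.95, 5.96, 0.546 and 2.70 CPM in knockout pools 1 to 4 and 15.5, 18.2, 9 and 7.59 CPM in wild-type pools 1 to 4 (log2 fold change -2.04, SE 0.59; edgeR adjusted p = 0.473, DESeq2 adjusted p = 0.0112). Ang, which encodes angiogenin, was at -1.02 (SE 0.38; edgeR adjusted p = 0.566). Rnase4 was at -0.60 (SE 0.28), with overlapping groups. Rnase6, farther on, had a positive log2 fold change of 0.87 (SE 0.39; edgeR adjusted p = 0.672) with overlapping groups. Rnase12, Ang, Rnase4 and Rnase6 were named after their values were seen. Rnase12, Pnp2, Pnp and Rnase10 had their lowest sample of all in knockout pool 3.

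Over all 10 genes, 89 other tested genes lay within 500 kb. Of these, 4 were lower without overlap (4.49%, against 2.35% of all tested genes), namely Ctla4, Pnp, Rnase12 and Ang, and 2 were higher (2.25%, against 2.18%), namely Cd28 and Ahrr. None of the 89 passed the edgeR test (0 of 13722 did), and their median log2 fold change was -0.05. Apart from the listed genes themselves, no tested gene within 500 kb of Robo4, Slc18a1, Muc13, Arpp21, Slc28a2, AA467197 or Cplx2 was free of overlap.

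**Figure D4:**
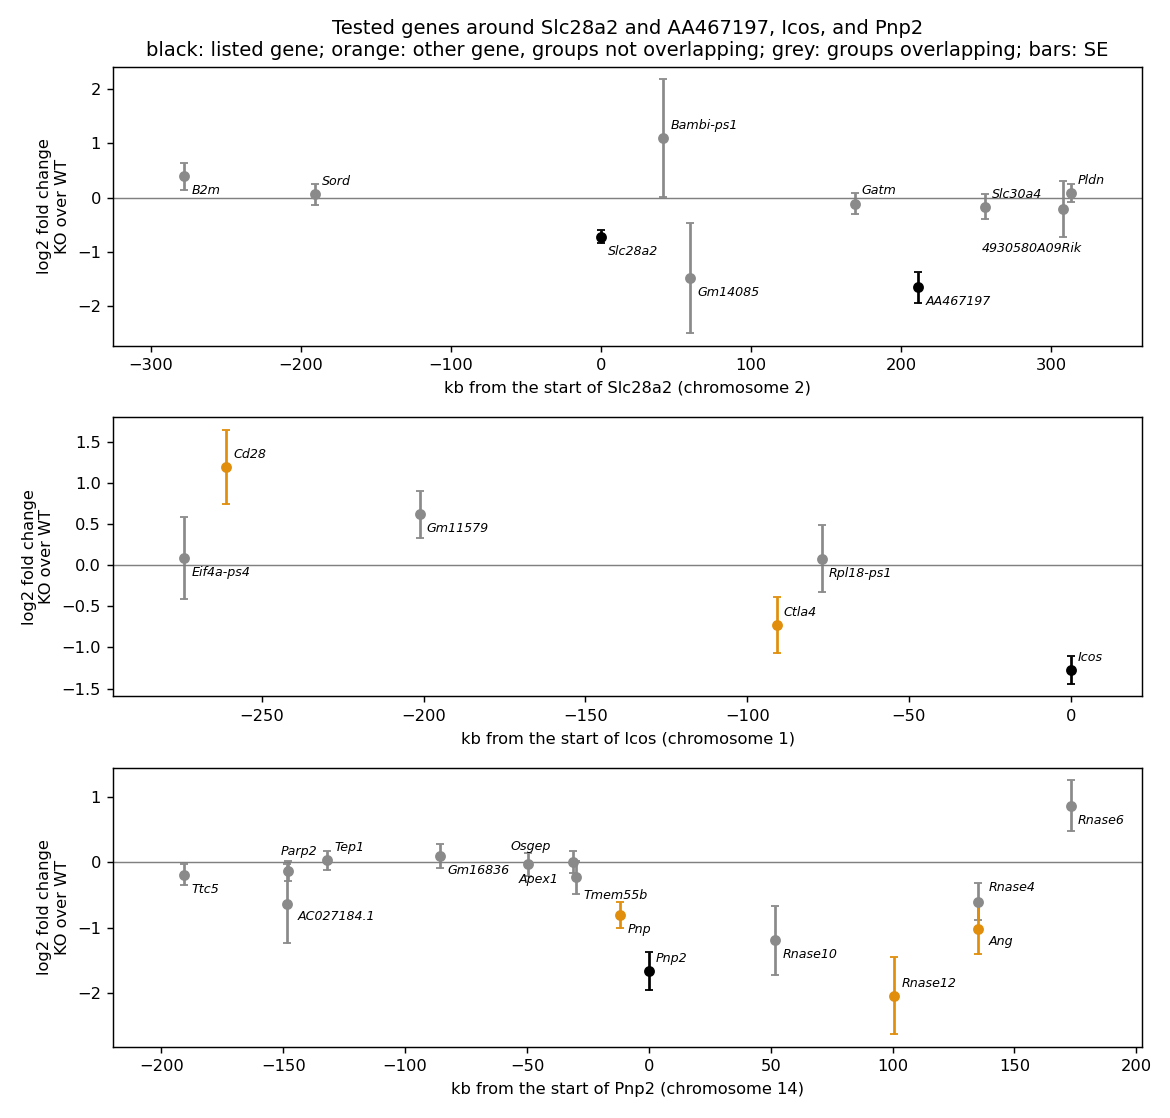
Log2 fold change (knockout over wild-type, bars are standard errors) of tested genes by distance in kb from the start of Slc28a2, Icos and Pnp2. Gatm and Slc30a4 beside AA467197 lie near 0, Cd28 lies above 0 while Icos and Ctla4 lie below, and Pnp, Rnase12 and Ang lie below 0 with Pnp2.

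RefSeq promoter windows of 300 bases (GRCm38.p6) were found for 7 of the 10. Windows were compared by CpG content, the observed CpG pairs over those expected from the C and G content. This ratio was 0.985 in AA467197, the 93.2 percentile of all 32851 windows, and 0.882 in Nkd2, but 0.106 in Robo4, 0.0614 in Slc28a2, and 0 and 0.242 in the 2 windows of Muc13, against a median of 0.384. In Cplx2 the ratio was 0.432, and over the 9 windows of Arpp21 it ran from 0.0445 to 0.659. The 250 bases before the start are shown for the chromosome 2 neighbours, 1 rich in CpG pairs and 1 with none, and for the 2 genes with the lowest fold changes, each 5′ to 3′ on the gene's strand with CpG pairs in capitals. Positions are chr2:122637637-122637886 (plus) for AA467197, chr2:122426185-122426434 (plus) for Slc28a2, chr9:37401722-37401971 (plus) for Robo4 and chr13:73847632-73847881 (minus) for Nkd2, all on GRCm38.p6.
AA467197: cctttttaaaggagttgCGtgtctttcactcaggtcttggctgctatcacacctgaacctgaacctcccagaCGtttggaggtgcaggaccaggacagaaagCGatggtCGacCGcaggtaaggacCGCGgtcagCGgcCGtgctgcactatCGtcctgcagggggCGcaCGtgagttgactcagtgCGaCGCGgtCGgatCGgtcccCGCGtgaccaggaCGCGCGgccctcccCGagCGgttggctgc
Slc28a2: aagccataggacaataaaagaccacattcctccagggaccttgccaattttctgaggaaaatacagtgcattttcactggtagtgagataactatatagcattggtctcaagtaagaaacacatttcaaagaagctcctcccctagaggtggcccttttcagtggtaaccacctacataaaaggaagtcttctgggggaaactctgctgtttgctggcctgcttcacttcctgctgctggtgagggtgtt
Robo4: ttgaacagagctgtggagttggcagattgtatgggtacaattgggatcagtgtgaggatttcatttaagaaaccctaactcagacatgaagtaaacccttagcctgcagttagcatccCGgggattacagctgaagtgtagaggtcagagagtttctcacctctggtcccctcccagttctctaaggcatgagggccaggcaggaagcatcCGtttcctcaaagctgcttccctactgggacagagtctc
Nkd2: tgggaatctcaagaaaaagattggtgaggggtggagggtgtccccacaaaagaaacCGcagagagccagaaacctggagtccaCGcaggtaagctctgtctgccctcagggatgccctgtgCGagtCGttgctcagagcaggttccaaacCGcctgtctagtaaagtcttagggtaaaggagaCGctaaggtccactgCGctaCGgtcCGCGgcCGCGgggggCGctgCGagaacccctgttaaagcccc
These stretches hold 24 CpG pairs in AA467197, 0 in Slc28a2, 2 in Robo4 and 14 in Nkd2. The FOXO-type motif TGTTTAC, searched on both strands, was in none of the 16 windows of the 7 genes, and in 3.65% of all windows. An E-box of the form CAGNTG, also on both strands, occurred in 14 of these 16 windows and in 51.4% of all windows. Arpp21 alone accounts for 9 of the 16, and some of its windows overlap, so the windows are not independent. Motifs of EBF1, RUNX and ETS factors were searched too. The EBF1 motif was in none of the 16 windows and in 0.904% of all windows. The RUNX motif (16.8% of all windows) occurred only in windows of Arpp21 and Slc28a2. The ETS motif (28.3%) occurred only in windows of Robo4, Muc13, Arpp21 and Slc28a2. Enrichment of a motif was not tested.

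The genes also differed in how they varied within a genotype. Deviations from the genotype means on the log2 CPM scale gave 45 pairs of genes, whose correlations over the 8 samples ran from -0.77 to 0.77 with a median of 0.07, against a median of 0 over all pairs of tested genes. The closest pairs were Robo4 with Slc28a2 (0.77) and Slc18a1 with AA467197 (0.77). The farthest was Robo4 with Muc13 (-0.77). All values of a sample share its library and depth, so these numbers are descriptions.

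By Pearson's r of log2 CPM over the 8 samples, which includes the genotype difference that chose the genes, each gene was most like the following. Robo4 was closest to Slc28a2 (0.981) and Stat4 (0.972), and Slc28a2 to Robo4 and Gm16794 (0.960). Icos was closest to Arpp21 (0.973) and Zfp667 (0.964), Arpp21 to Ccdc76 (0.983) and Icos, and Slc18a1 to Zfp667 (0.984) and AA467197 (0.959). Nkd2 was closest to Gm16794 (0.973) and Dcun1d1 (0.972), and Muc13 to Gm8292 (0.975) and Dcun1d1 (0.966). Pnp2 was closest to Dlg2 (0.969) and Bfsp2 (0.968), Cplx2 to Mettl6 (0.973) and Bcat1 (0.972), and AA467197 to Csf3r (0.976) and Phtf2 (0.962). These neighbours in profile were found through the same values, so no test is given for them.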

How the data were processed

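Read counts per gene were measured by RNA sequencing in 4 H2afy_KO and 4 H2afy_WT samples of B-cell-biased lymphoid progenitors. The authors deposited whole-number counts per Ensembl gene, not normalized. HISAT2 2.0.6 and mm9 are named in the submitters' processing notes. The labels' protocols name a SMARTer Ultra Low kit, a kit without strand information. Reads were single, 50 bases each. The counter and how it handled shared reads were not given in the sources used here. GENCODE M1 (NCBIM37, the assembly of mm9) named 37205 of the 37991 gene IDs.

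In R 4.3.3, filterByExpr at a minimum count of 10 left 13722 genes. Library sizes were scaled by TMM, and the genotypes were compared by the quasi-likelihood test of edgeR (4.0.16) in its robust form. P-values were adjusted over these genes by the Benjamini-Hochberg method and called under 0.05. Each SE (standard error) of a log2 fold change was derived from the same test. It is the absolute log2 fold change divided by the square root of the F statistic. For the 10 genes it describes the values that chose them and is no test of genotype. The common biological coefficient of variation was 0.390. Log2 CPM used a prior count of 2. DESeq2 (1.42.0) was an alternative. Depth was 21330088 to 29029765 counts per sample. P-values measure the spread between pools, which may share mice.

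The 10 genes and all lists were chosen with earlier results of these data known. Named genes are the 10, their relatives, the 2 genes of each pathway list with the smallest p, the nearest tested gene on either side, the 2 with the most similar profile, and Gm17552 just outside the rule. Replicate numbers are shared by the genotypes, and deviations of same-numbered samples correlated at 0.19, 0.19, 0.36 and 0.41 across genes, each over 0.1. Same-numbered samples were therefore treated as pairs in the blocked alternative, a hint from the data and not from the labels. Correlations of differently numbered samples were not computed, so these values cannot show that the samples are paired.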

Additional observations from a re-analysis of the deposited data

Results flagged for a closer look

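Within groups of 4 samples, 7 of 138 combinations of gene and genotype had 1 sample standing far from the other 3 relative to the group's range. Chance alone marks about 1 in 20 of such combinations, so 7 of 138 is not an unusual number. None of the 7 concerned the 10 listed genes. Among the neighbours of Pnp2, Rnase10 in H2afy_KO 3 was at 0.546 CPM, against 3.21 to 3.33 CPM in the other H2afy_KO samples, and Ang in H2afy_WT 2 was at 4.19 CPM, against 1.99 to 2.19 CPM. Beside Muc13, Gm15657 in H2afy_KO 1 was at 1.27 CPM, against 0.217 to 0.364 CPM, and Itgb5 in H2afy_WT 2 at 2.26 CPM, against 0.751 to 0.837 CPM. Lpl, the nearest tested gene before Slc18a1, was at 5.90 CPM in H2afy_WT 4, against 1.46 to 2.15 CPM. Prkar1b was at 1.13 CPM in H2afy_WT 4, against 0.0675 to 0.189 CPM, and Gm8292 at 5.34 CPM in H2afy_WT 1, against 3.66 to 3.87 CPM.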

How the results depend on the processing

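That the listed genes stay lower and free of overlap is fixed by how they were chosen and is no sign of stability. A filter of 5 CPM in 4 samples removed Robo4 and Nkd2. The median log2 fold change of the listed genes was -1.60 to -1.25 over the 17 alternatives, and of 168 recomputed values 165 stayed within 1 SD of the main value. The others were Slc18a1 (-1.34) and Slc28a2 (-0.91) with unscaled library sizes, which moved the median of all genes by -0.18, and Arpp21 (-0.74) without H2afy_KO 3 and 4. The number of genes called over all genes, 0 in edgeR, was 118 with DESeq2 (47 higher, 71 lower), 15 with the replicate block (4 higher, 11 lower), 16 with no filter, 5 with upper-quartile factors, 3 without immunoglobulin genes, and 2 with unscaled library sizes as with the 5 CPM filter. It was 0 to 1 with each sample left out. Pathway genes called were 2 with DESeq2, Pnp and Tcf7l1, and 0 in each other setting, the replicate block included. Among other named genes, these signs turned: R3hdm1 (0, -0.15 and -0.01) and Ndufa4 (-0.13 and -0.01) under upper-quartile factors (R3hdm1 alone), unscaled sizes and the block, Atp6v1b2 (-0.01) and Sord (-0.14) under unscaled sizes, Muc1 (0.19) and Lpl (-0.08) under the block, and Slc18a2 (0.17), Muc1 (0.19), Trip13 (0.10), Sord (0) and Bambi-ps1 (-0.31) without H2afy_KO 3 and 4. With each sample left out in turn, values ran between -0.27 and 0.10 for Slc18a2, -0.11 and 0.12 for Ndufa4, -0.07 and 0.06 for R3hdm1, -0.19 and 0.08 for R3hdm2, -0.89 and 0.36 for Itgb5, -0.56 and 0.56 for Muc1, -0.09 and 0.18 for Sord, -0.13 and 0.15 for Pard3b, -0.09 and 1.35 for Lpl, and -0.26 and 0.01 for Gatm. Where a setting moved a count, the cause was not tested. At the depth of these samples Nkd2 rests on 1 to 3 reads in each H2afy_KO sample.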
